A study of Mus musculus with 6 samples.

Results

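Matrix metalloproteinases are secreted or membrane-bound zinc enzymes that cut the proteins of the extracellular matrix, and the tissue inhibitors of metalloproteinases (Timp) are small secreted proteins that bind their active site. The 10 genes described here are Mmp2, Mmp3, Mmp9, Mmp10, Mmp11, Mmp13 and Mmp14 with the inhibitors Timp1, Timp2 and Timp3. They were taken as a family by gene name, with earlier results of these data known. Every probe whose RefSeq accession in the scanner files belongs to one of them was taken, which gave 13 of 41174 probes. Of the 10 genes, 9 passed the filter on dim probes, which asked for a signal well above background in every array of 1 group or both, and were among the 19657 features compared. Mmp9 did not pass and is given as levels only.

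RNA came from mouse embryonic fibroblasts that were labelled wild type (3 arrays) or knockout for Rap1 (3 arrays). Rap1 is the telomere protein encoded by Terf2ip, and its knockout allele lacks exon 3, which Cre recombinase removes between loxP sites. Cells of both groups had been infected with the large T antigen of SV40, which immortalises them, and with Cre, and both were grown in medium with puromycin. The embryonic age, the number of embryos and whether the wild-type cells carried loxP sites are not given in the sources used here, and neither is a separate culture for each replicate, so the p-values speak only of the spread among these arrays, which may be technical. In RNA from a whole culture, fewer cells of a type and less RNA per cell cannot be told apart.

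Fibroblasts are a main source of these enzymes in connective tissue. Most metalloproteinases are made as inactive precursors, and the amount of active enzyme depends on transcription, on removal of the propeptide and on the inhibitors. Transcription of collagenase and stromelysin genes is known to respond to growth factors and inflammatory cytokines through AP-1, the dimer of Fos and Jun proteins, while Mmp2, Mmp14 and Timp2 are usually expressed at a steadier level in fibroblasts. Timp2 also helps Mmp14 to activate the precursor of Mmp2 at the cell surface.

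The promoter sequences are shown first. Among the genes with a promoter at hand, those with an AP-1 match (Mmp13, Mmp3 and Mmp10) had the widest ranges over the arrays. They are neighbours on chromosome 9, and a link between motif and range was not tested. Each of those ranges is that of wild-type array 1 over knockout array 1. RefSeq promoters of build GRCm38.p6, from 250 bases before to 50 after the annotated start, were held for 8 of the 10 genes (not for Mmp2 or Mmp9). Each was searched on both strands for 4 motifs, whose letters were picked with the sequences in view. The AP-1 motif was TGAGTCA, which reads TGACTCA on the other strand. The TATA box was searched as TATAAA. The GC box, the site known for Sp1 and related factors, was searched as GGGCGG, or CCGCCC on the other strand. The last was PEA3, a motif of ETS factors, with the letters AGGAAG. No match of one motif overlapped a match of another in these 8 windows. In the lines below, which give 30 bases 5′ to 3′ on the gene's own strand, capitals mark the AP-1 match nearest the start for Mmp13 (chr9:7272468-7272497, plus strand), Mmp3 (chr9:7445765-7445794, plus strand) and Mmp10 (chr9:7502268-7502297, plus strand).
Mmp13: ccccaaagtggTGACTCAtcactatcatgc
Mmp3: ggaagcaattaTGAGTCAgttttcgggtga
Mmp10: tagcacccatgTGAGTCAtgcttagtgacc

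For the other 5 genes, capitals mark the GC box nearest before the start. The windows are Mmp11 (chr10:75932504-75932533, minus strand), Mmp14 (chr14:54431568-54431597, plus strand), Timp1 (chrX:20870136-20870165, plus strand), Timp2 (chr11:118355431-118355460, minus strand) and Timp3 (chr10:86300382-86300411, plus strand).
Mmp11: cggcgccggcggGGGCGGggcgaatgctat
Mmp14: ggagggcattggggcggGGGCGGaggagag
Timp1: atctttgggtttatcctggggcCCGCCCct
Timp2: ctggggagggctGGGCGGcgcggcgcggga
Timp3: cggtccgggccggctCCGCCCtgtcgcccc

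The AP-1 match began 35 bases before the start in Mmp13, 46 in Mmp3 and 63 in Mmp10. These 3 genes also held the letters of a TATA box, which began 16 bases before the start in Mmp13, 7 in Mmp3 and 29 in Mmp10. They held no GC box. The other 5 held at least 1 GC box, no AP-1 match and no TATA box. Among all 32851 promoter windows, 5.2% held the AP-1 letters, 13.6% a TATA box, 0.941% both, and 35.7% a GC box. PEA3 was in Mmp13, Mmp3, Mmp14, Timp1 and Timp3, in both kinds of promoter, and in 35.4% of all windows. A match in these windows is a description of the letters and not a measured binding site.

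**Figure D1:**
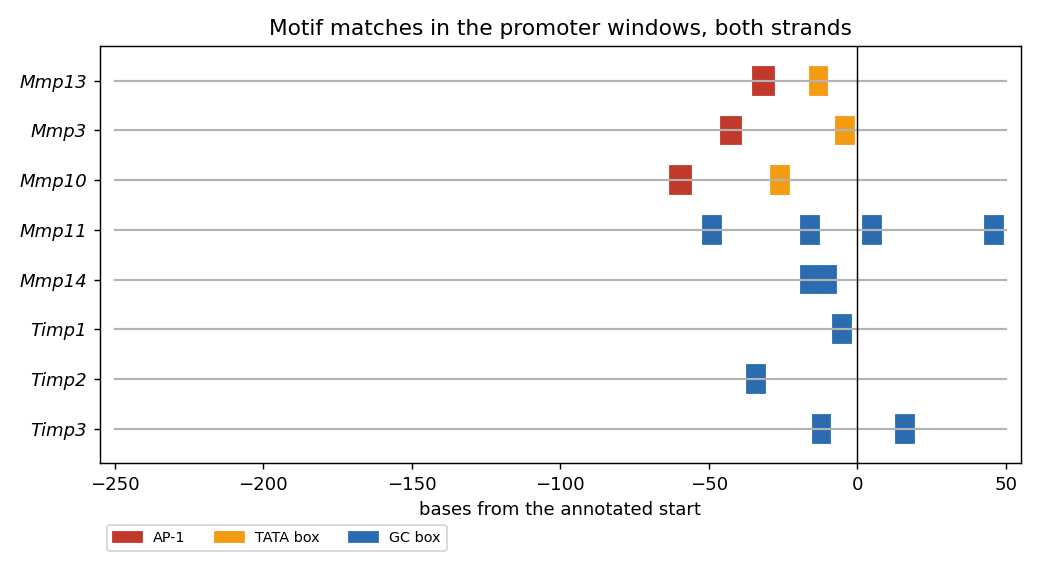
Motif matches in the promoter windows of 8 member genes, by distance in bases from the annotated start (vertical line); each box is 1 match on either strand and its width is the length of the motif. Mmp13, Mmp3 and Mmp10 hold an AP-1 match and a TATA box, and of these 3 motifs the other 5 genes hold GC boxes only; PEA3 is not drawn.

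The label of the knockout arrays was checked by Terf2ip, which did not reach that detection level in any of them and fell at least 37.7-fold (limma adjusted p = 0.00794, and 0.0626 with the slide as a block). Between 25393 and 27633 probes per array were well above background, no spot was saturated, and the number of arrays limits the precision. Wild-type arrays 2 and 3 stood apart by being nearly alike, with an SD of their log2 difference of 0.25 over all features against 0.83 to 1.25 for the other pairs of arrays. The arrays lay on 2 slides, with wild-type array 1 and knockout array 1 on slide 1 and the other 4 on slide 2. All 8 fibroblast markers (Col1a1, Col1a2, Pdgfra, Pdgfrb, Vim, Thy1, S100a4 and Fap) entered the comparison. Of 9 probed macrophage markers, Ptprc, Adgre1, Itgam and Tyrobp reached the detection level on 0 of the 6 arrays, Csf1r and Aif1 on 4, Fcgr3 on 5, and Cd14 and Lyz2 on 6.

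No member passed the threshold. At a limma adjusted p under 0.05, 0 of 9 members were called (2 of 19657 features, 0.0102%), and their adjusted p-values ran from 0.486 to 0.961. At an unadjusted p under 0.05 there was 1 member, Mmp3 (11.1% of the 9, against 10.3% of all features). The groups did not overlap for 2 members, Mmp3 lower and Timp2 higher in knockout cells. That is 22.2% of the 9 members against 17.3% of all features, a share close to the background, which splits into 11.4% higher and 5.89% lower. With wild-type arrays 2 and 3 averaged as 1 sample, 0 members and 0 features passed (0 members and 691 features at an unadjusted p under 0.05). Of the 9 differences, 5 lay below 0 and 4 above, with a median of −0.51 (log2, knockout minus wild type) against 0.07 over all features. Without wild-type array 1 the members' median was 0.05, and on slide 2 alone it was −0.01. A difference of at least 2-fold was found for 3 members, Mmp3, Mmp13 and Mmp10, all lower in knockout cells. Over all features 10.2% differed that much (6.26% lower and 3.9% higher), but the shares are not comparable, because Mmp13 and Mmp10 passed the filter only through the wild-type group, where they were higher. Of the 7 members above background on all arrays, Mmp3 alone reached 2-fold, and their median was 0.06. Both a 2-fold difference and no overlap were found for Mmp3, and for 4.32% of all features. Mmp3, Mmp13 and Mmp10 are neighbours on chromosome 9, and for 2 of them the groups overlapped.

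Levels below are log2 of the processed signal relative to the 75th percentile of the array. A level of 0 therefore lies at that percentile, and a step of 1 is a doubling of signal. Levels of different probes are not compared with each other, because probes differ in brightness.

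Mmp3 encodes stromelysin-1, which cuts proteoglycans, fibronectin and laminin and activates other metalloproteinases. By probe A_51_P255699 its level was 2.22, 1.87 and 1.82 on wild-type arrays 1, 2 and 3, and −6.44, −0.63 and 0.14 on knockout arrays 1, 2 and 3. All knockout arrays lay below all wild-type arrays, and knockout array 1 lay far below the other 2. The means were 1.97 ± 0.22 (SD, n = 3) and −2.31 ± 3.60 (SD, n = 3), which differ by −4.28 on the log2 scale (SE 1.62; limma adjusted p = 0.486), or 19.4-fold. Mmp3 was above background on all 6 arrays, so this is a measured difference and not a bound. It was dim on knockout array 1, with a processed signal of 10 against 541 and 1480 on knockout arrays 2 and 3. The difference was −3.39 after normexp with quantile normalisation and −3.40 in the value table. On slide 1 it was −8.67 (407-fold, 1 array against 1), and on slide 2 it was −2.09 (4.25-fold, 2 against 2). Without knockout array 1 the difference was −2.21, about as large as on slide 2 (limma adjusted p = 0.243). Averaging wild-type arrays 2 and 3 gave −4.34 (limma adjusted p = 0.936), and over the alternatives run the adjusted p lay between 0.0727, on slide 2 alone, and 0.945.

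Mmp13 encodes collagenase-3, the main interstitial collagenase of the mouse, which cleaves fibrillar collagen. By probe A_51_P184484 its level was 1.39, −3.14 and −3.37 on wild-type arrays 1, 2 and 3, and −9.08, −4.69 and −1.36 on knockout arrays 1, 2 and 3. Wild-type array 1 was the highest, knockout array 1 was not well above background, and the groups overlapped. In processed signal, which is not scaled between arrays, these were 3020, 124 and 100 in wild type and 2, 32 and 522 in knockout cells. The means were −1.71 ± 2.68 (SD, n = 3) and −5.04 ± 3.87 (SD, n = 3) with the undetected array at its own signal, and the log2 difference of −3.34 had an SE of 2.11 (limma adjusted p = 0.537). It was −2.57 with that array raised to its floor and −1.61 after normexp with quantile normalisation. Single arrays moved it too. Leaving out knockout array 1 gave −1.32, leaving out the first wild-type array gave −1.79, and leaving out the third knockout array gave −5.18. Within the wild-type group, where all arrays were above background, the highest was 27.1-fold above the lowest. On slide 2, knockout minus wild type was 0.23, and on slide 1 the knockout array was at least 291-fold lower, with the array's lowest signal well above background as the floor.

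Mmp10 encodes stromelysin-2, a close relative of Mmp3. By probe A_51_P120830 its level was 1.29, −4.58 and −4.87 on wild-type arrays 1, 2 and 3, and −8.00, −5.01 and −4.47 on knockout arrays 1, 2 and 3. Wild-type array 1 stood alone at the top, knockout array 1 was below the detection level, and the other 4 arrays lay between −5.01 and −4.47. The log2 difference was −3.11 (SE 1.78, limma adjusted p = 0.520) between −2.72 ± 3.48 (SD, n = 3) and −5.83 ± 1.90 (SD, n = 3). The difference was −0.01 on slide 2, without wild-type array 1 it was −1.1, and without knockout array 1 it was −2.02. It was −1.75 after normexp with quantile normalisation. Within the wild-type group the highest array was 71.6-fold above the lowest.

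Mmp11 encodes stromelysin-3, which is activated inside the cell by furin and is known from the stroma around tumours and remodelling tissue. It was the steadiest of the members, at 2.10, 2.22 and 2.24 in wild-type cells (arrays 1 to 3) and 2.58, 2.29 and 2.11 in knockout cells. The groups overlapped, and the highest array was only 1.4-fold above the lowest. Knockout minus wild type was 0.14 (SE 0.23, limma adjusted p = 0.788), and it was −0.03 on slide 2.

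**Figure D2:**
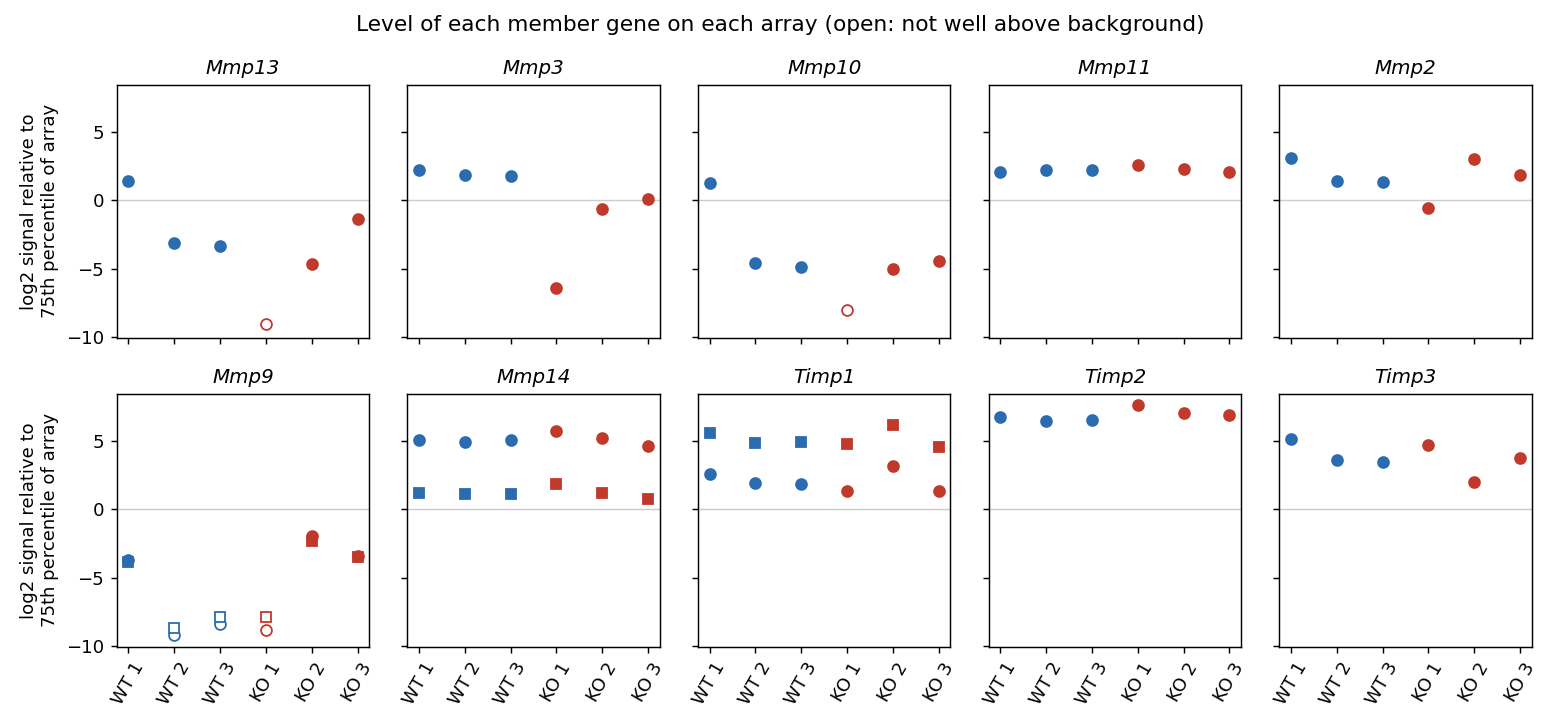
Level of each probe of the 10 member genes on each array (x axis, 3 wild-type arrays in blue and 3 knockout arrays in red; y axis, log2 signal relative to the 75th percentile of the array). Circles and squares are different probes of a gene, and open symbols were not well above background. Mmp13, Mmp3 and Mmp10 reach their lowest level on knockout array 1, and Mmp11, Mmp14 and Timp2 stay within 1.13 (log2) over the 6 arrays for the probe used.

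The gelatinases Mmp2 and Mmp9 digest denatured collagen and the type IV collagen of basement membranes. Mmp2 was at 3.08, 1.42 and 1.36 in wild-type cells (arrays 1 to 3) and at −0.54, 3.00 and 1.86 in knockout cells. Knockout array 1 was the lowest, the other 2 knockout arrays lay inside the range of the wild type, and the groups overlapped. The log2 difference was −0.51 (SE 0.94, limma adjusted p = 0.818), with −3.61 on slide 1 and 1.04 on slide 2, so its sign differed between the slides.

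Mmp9 was read by 2 probes, 1 of them printed on several spots (8 to 10 of them used per array). That repeated probe was at −3.83, −8.71 and −7.92 on wild-type arrays 1, 2 and 3, and at −7.87, −2.30 and −3.47 on knockout arrays 1, 2 and 3. It was well above background on wild-type array 1 and on knockout arrays 2 and 3, and not on the other 3 arrays, so detection did not follow the group. On slide 1 only the wild-type array detected it, and on slide 2 only the knockout arrays did, so the slides went opposite ways. Where it was detected, the SD between the spots of an array was 0.05 to 0.06 (log2), far below the step between arrays. The second probe, on 1 spot, was detected on the same 3 arrays, at −3.72 in wild type and at −1.92 and −3.43 in knockout cells. The repeated probe on its brightest array, that of knockout replicate 2, lay at least 29.3-fold above the floor of the dimmest. Mmp9 was well above background on all arrays of neither group, so it was not tested.

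Mmp14, the membrane-anchored enzyme that activates Mmp2, was read by 2 probes. The brighter probe was at 5.05, 4.93 and 5.08 in wild-type cells (arrays 1 to 3) and at 5.73, 5.22 and 4.61 in knockout cells. The wild-type arrays lay inside the range of the knockout arrays. The log2 difference was 0.17 (SE 0.32, limma adjusted p = 0.828), and it lay at −0.02 after quantile normalisation. The second probe gave 0.13 (SE 0.31) when every probe was its own feature.

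Timp1, an inhibitor of most secreted metalloproteinases that is induced by cytokines, also had 2 probes. The brighter was at 5.58, 4.87 and 4.91 in wild-type cells (arrays 1 to 3) and at 4.81, 6.17 and 4.57 in knockout cells. Knockout array 2 was the highest, knockout array 3 the lowest, and the groups overlapped. The log2 difference was 0.06 (SE 0.47, limma adjusted p = 0.961), and it turned to −0.13 after quantile normalisation. The second Timp1 probe gave −0.15 (SE 0.54), so the probes differed in sign and neither differed from 0 by more than its SE.

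Timp2, the inhibitor that also links Mmp14 to the precursor of Mmp2, was at 6.76, 6.49 and 6.58 in wild-type cells (arrays 1 to 3) and at 7.62, 7.07 and 6.94 in knockout cells. The lowest knockout array, at 6.94, was above the highest wild-type array, at 6.76. Knockout minus wild type was 0.60 (SE 0.26, limma adjusted p = 0.492) or 1.52-fold, with 0.87 on slide 1 and 0.47 on slide 2. After quantile normalisation the groups overlapped and the difference was 0.44. Between its alternatives the difference stayed above 0, from 0.40 to 0.74, and the adjusted p from 0.229 to 0.945.

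Timp3, the inhibitor that binds to the matrix and also blocks shedding enzymes of the ADAM family, was at 5.12, 3.60 and 3.49 on the wild-type arrays. On the knockout arrays it was at 4.69, 1.97 and 3.75. Knockout array 2 was the lowest and wild-type array 1 the highest, and the groups overlapped. The log2 difference was −0.60 (SE 0.76, limma adjusted p = 0.727), with −0.43 on slide 1, −0.69 on slide 2 and 0.15 without knockout array 2.

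**Figure D3:**
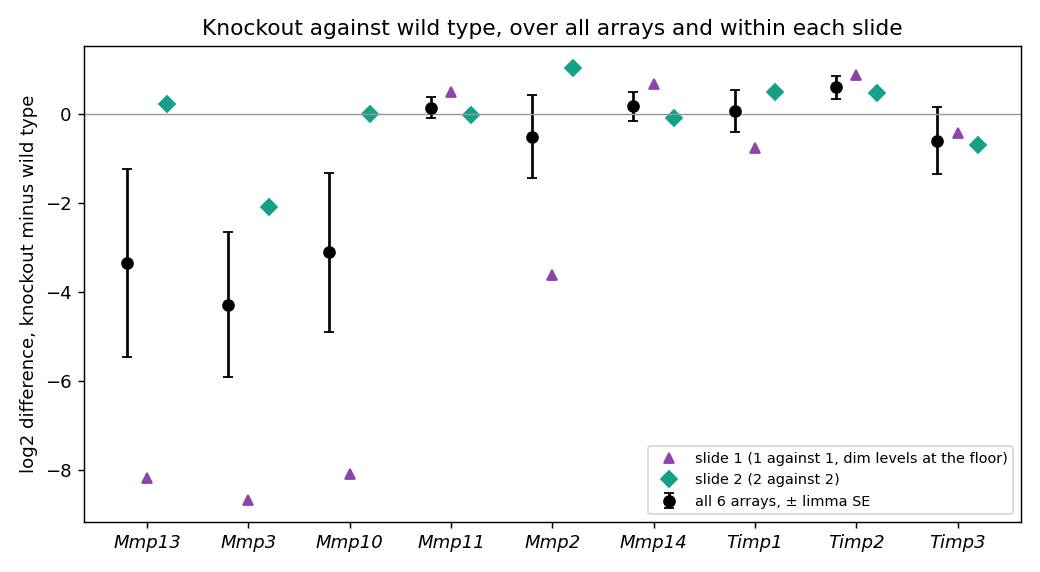
Log2 difference, knockout minus wild type, for the 9 tested member genes: over all 6 arrays with the limma SE (black), on slide 1 (triangles, 1 array against 1, with undetected levels set to the floor of the array) and on slide 2 (diamonds, 2 against 2). For Mmp13 and Mmp10 the slide 2 values are 0.23 and −0.01, while the slide 1 values, −8.18 and −8.08, are bounds because knockout array 1 was not above background.

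The members differed widely in how far a gene moved over the 6 arrays, taken without regard to group. With levels under the floor of an array raised to that floor, the highest array exceeded the lowest by 8.67 for Mmp3, 8.18 for Mmp13 and 8.08 for Mmp10 (log2), against a median of 1.1 over all features. Only 15 of 19657 features had a larger range than Mmp3, 21 than Mmp13 and 24 than Mmp10. The last 2 ranks are not comparable with those of other features. Mmp13 and Mmp10 passed the filter only through the wild-type group, and their lowest array, knockout array 1, was not above background. Mmp2 followed with 3.61 (4.58% of features had a larger range) and Timp3 with 3.15 (6.38%). Timp1 had a range of 1.60, Timp2 of 1.13 and Mmp14 of 1.12, near the median, and 94.1% of features had a larger range than Mmp11. For Mmp3, Mmp13, Mmp10 and Mmp2 the highest was wild-type array 1 and the lowest knockout array 1. Their ranges are therefore the slide 1 difference, 1 array against 1, and are not separate from the group. The ranks describe 6 arrays, of which 2 were nearly alike, and carry no test.

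**Figure D4:**
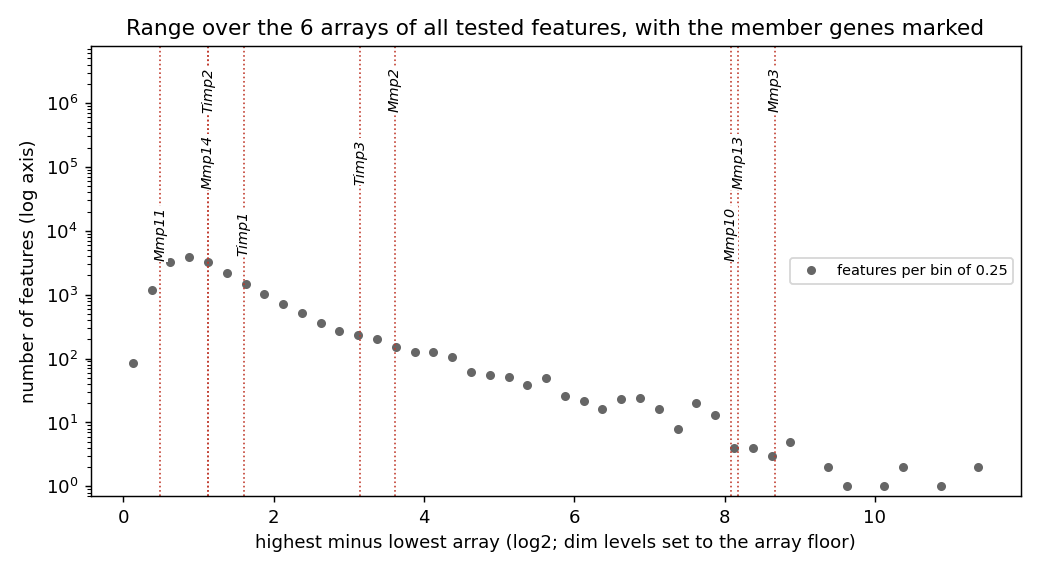
Number of features (log axis) by range over the 6 arrays (x axis, highest minus lowest array in log2, with dim levels set to the floor of the array), with the 9 tested member genes marked by dotted lines. Mmp10, Mmp13 and Mmp3 lie beyond 8 (log2), where few features remain, and Mmp11 lies at 0.49.

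Mmp13, Mmp3 and Mmp10 belong to a cluster of 10 metalloproteinase genes on chromosome 9, as ordered in GRCm38.p6. Among them 8 had a probe and 3 entered the comparison. Mmp12, Mmp1a, Mmp20 and Mmp7 were below the detection level throughout. Mmp8, neutrophil collagenase, was well above background on wild-type array 1 alone, at 0.94, and lay between −9.47 and −8.45 elsewhere. That array was also the highest for Mmp13, Mmp3 and Mmp10. The genes that flank the cluster were steady by comparison. Dcun1d5, before Mmp13, ranged from 2.65 to 3.21 over the 6 arrays (log2 difference 0.27, SE 0.24), and Tmem123, after Mmp7, from 2.40 to 3.16 (0.14, SE 0.26). Birc2 and Birc3, apoptosis inhibitors further along, ranged from −0.27 to 1.11 and from −0.24 to 0.80. They differed by −0.10 (SE 0.38) and 0.12 (SE 0.32). Tmem123, Birc2 and Birc3 were lowest on knockout array 1, and Dcun1d5 was not. Among the promoters, 7 of the 10 cluster genes held the AP-1 letters at 1 listed start or more. The TATA letters were in 9, at any place in the window, and a GC box in 0. Genes not detected here thus held AP-1 and TATA letters too.

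**Figure D5:**
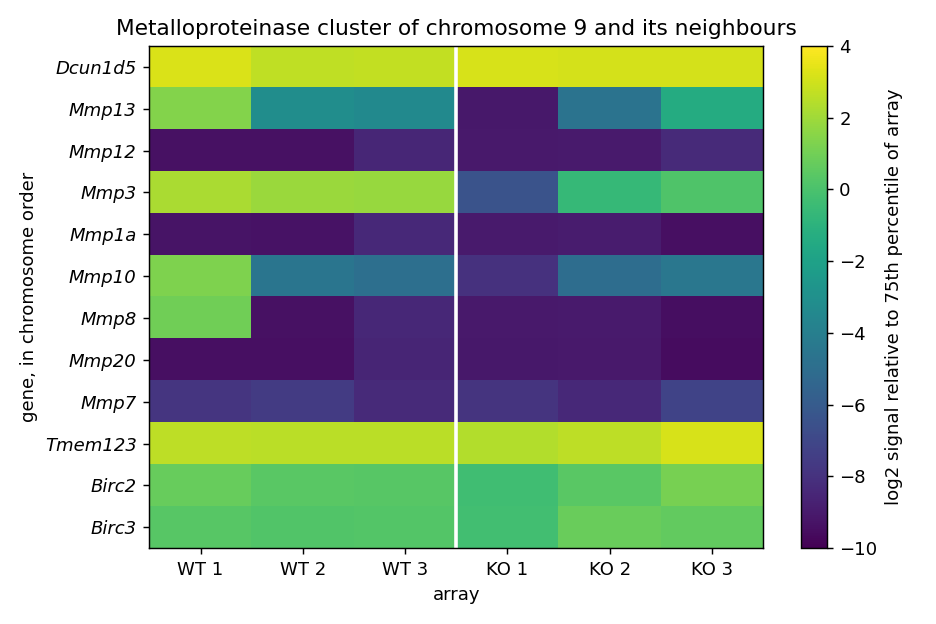
Levels on each array (columns, wild type left of the white line and knockout right of it; colour, log2 signal relative to the 75th percentile of the array) of the 8 probed metalloproteinase genes of the chromosome 9 cluster and 4 neighbours, in gene order. Mmp13, Mmp10 and Mmp8 are brightest on wild-type array 1, while Dcun1d5 and Tmem123 vary little.

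The other genes around these enzymes were taken from lists of known function. No list had a member past the threshold. Of 5 other metalloproteinases measured, 0 passed, 3 lay above 0 and 2 below. Mmp25, a membrane-anchored enzyme of leukocytes, came closest, at 0.99 (SE 0.32, limma adjusted p = 0.474). Its level lay between −5.31 and −3.72, and the difference was 0.35 on slide 1 and 1.31 on slide 2. The groups did not overlap for Mmp25 and Mmp24 (0.63, SE 0.27), which were higher in knockout cells. Over all features 11.4% were separated in that direction. Of 9 other inhibitors and surface regulators 0 passed, and Cav1, the coat protein of caveolae, had the smallest p (−0.58, SE 0.50, limma adjusted p = 0.620). Timp4 differed by 0.09 (SE 0.28). Bsg, which induces metalloproteinases in neighbouring cells, differed by −0.04 (SE 0.24) and Reck, a membrane inhibitor of several members, by −0.28 (SE 0.30). Of the activating convertases Furin and Pcsk7 neither passed, with 0.27 (SE 0.28) and 1.04 (SE 0.47, limma adjusted p = 0.495).

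Among 9 genes of plasminogen activation, a route that converts metalloproteinase precursors, 0 passed and the median was 0.62. Anxa2, a cell surface receptor for plasminogen, had the smallest p, at 0.63 (SE 0.21, limma adjusted p = 0.474). Plaur, the urokinase receptor, differed by −0.71 (SE 0.29). Of 12 ADAM and ADAMTS proteases 0 passed, 10 lay below 0, and Adam15 had the smallest p (0.64, SE 0.25, limma adjusted p = 0.486). Of 6 cytokines and receptors that act on these genes 0 passed, Osmr having the smallest p (−0.48, SE 0.30, limma adjusted p = 0.536). Il1a, Il1b and Tnf, known inducers of collagenase, reached the detection level on 0 of the 6 arrays.

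Of 13 transcription factors of the AP-1 and ETS families and their partners 0 passed, 7 lay above 0 and 6 below, with a median of 0.10. Etv5 had the smallest p, at −1.82 (SE 0.55, limma adjusted p = 0.468). The AP-1 subunits differed in both directions. Fos and Jun differed by −0.15 (SE 0.45) and −0.88 (SE 0.48), Fosl1 by −0.52 (SE 0.45) and Fosb by −0.64 (SE 0.26). Junb, Jund and Fosl2 differed by 0.18 (SE 0.44), 0.49 (SE 0.30) and 0.10 (SE 0.26). The groups did not overlap for Fosb, which was lower in knockout cells (limma adjusted p = 0.486). They also did not overlap for Ets1 (0.45, SE 0.26) and Rela (0.60, SE 0.24), which were higher. Over all features 5.89% were separated lower and 11.4% higher. Fos was at 1.15, 0.44 and 0.26 in wild-type cells (arrays 1 to 3) and at 0.33, 1.32 and −0.24 in knockout cells. Fosl1 was at 0.28, 1.39 and 1.51 in wild-type cells and at −0.12, 1.07 and 0.66 in knockout cells. The groups overlapped for Fos and Fosl1.

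Of 15 matrix proteins that these enzymes cut 0 passed, 13 lay below 0, and the groups did not overlap for 4, all lower in knockout cells (5.89% of all features were separated in that direction). Their median was −0.69. Nid1, a linker of basement membranes, had the smallest p, at −0.79 (SE 0.25, limma adjusted p = 0.473). Dcn, a collagen-binding proteoglycan, was at 5.79, 3.54 and 3.13 in wild-type cells (arrays 1 to 3) and at −5.47, 4.97 and 2.19 in knockout cells. Like Mmp3 it was by far the lowest on knockout array 1 and highest on wild-type array 1.

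The fibroblast markers did not move together. Thy1, Pdgfra and Fap were lowest on knockout array 1, as Mmp3, Mmp13, Mmp10 and Mmp2 were. Thy1 was at −2.22 on that array against 1.92 and 1.99 on the other knockout arrays, Pdgfra at −1.48 against 1.99 and 0.12, and Fap at −8.03 against −4.70 and −3.00. Pdgfrb was at its highest there, at 4.56, and Col1a1, Col1a2, S100a4 and Vim lay inside their range over the other arrays. The mean level of the 8 was 4.39, 3.83 and 3.89 in wild-type cells and 2.54, 3.54 and 3.15 in knockout cells, and its low value on knockout array 1 came with those 3 genes. On wild-type array 1, where Mmp13, Mmp10 and Mmp8 were highest, the macrophage markers Csf1r (−4.15) and Fcgr3 (−2.50) and the endothelial markers Eng (−2.26) and Kdr (−2.31) were also at their highest. Cd14 was not, at 0.05 against 0.71 and 0.61 on the other wild-type arrays, and Lyz2 was highest on knockout array 3, at −1.34. The endothelial markers Tie1, Cdh5 and Pecam1 reached the detection level on 0 arrays, and Tek on 3 at most. Over the macrophage markers that entered, the mean ran from −4.42 to −2.33 in wild-type cells and from −4.54 to −3.50 in knockout cells. Over Eng and Kdr it ran from −4.49 to −2.29 and from −4.70 to −2.91. Over the 5 epithelial markers that entered, the mean was lowest on wild-type array 1, at −4.19, against −3.83 to −2.72 on the others. Epcam was lowest on wild-type array 1 too, at −6.28. Mpo, the only neutrophil marker that entered, was at −7.04 on wild-type array 1 and at −6.22 and −7.29 on wild-type arrays 2 and 3. The part of these cell markers in the metalloproteinase levels was not tested.

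Genes whose pattern over the 6 arrays was most like that of a member were sought among 11856 named features, as the root mean square difference of levels after centring each gene and dividing by its SD. The nearest to Mmp13 was Bdh2 (0.082), to Mmp3 Mtpn (0.0756), and to Mmp10 Ppargc1b (0.0779), followed for Mmp10 by Tmem126a (0.107) and Saa3, an acute phase protein (0.152). The nearest to Mmp2 was Plac1 (0.0887), to Mmp11 Mettl6 (0.0215), and to Mmp14 Fbxw9 (0.0672). The nearest to Timp1 was Mcfd2 (0.045), to Timp2 Mical1 (0.0256), and to Timp3 Pcdhb5 (0.0793). The median over all features compared lay between 1.08 and 1.47 for the 9 members. Among the members themselves the most alike pairs were Mmp13 with Mmp10 (0.384) and Mmp11 with Mmp14 (0.403), and Mmp13 with Mmp3 stood at 0.491. Mmp3 with Mmp10 stood at 0.696, less alike than Mmp2 with Mmp13 (0.62), Mmp10 (0.632) or Mmp3 (0.689). With 6 arrays, close matches among so many features are common, and the values are a description.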

How the data were processed

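Per the labels' protocols, total RNA of 3 wild-type and 3 Rap1 knockout samples was Cy3-labelled for one-colour Agilent arrays. Per the file headers, version 10.5.1.1 of Feature Extraction made the deposited intensity values, a processed signal corrected for background and detrended within the array. The deposited value table holds log2 values, for which the submitters' processing notes name limma. Its columns correlated at 0.99998 or more with scanner signals after normexp (offset 50) and quantile normalisation. Knockout columns 1, 2 and 3 of that table held the values of scanner files 2, 3 and 1, so replicate numbers here are those of the scanner files. The sources used here do not give the steps behind the table.

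Of 45018 spots, 1639 control spots and 74 to 120 outlier spots per array were left out. Spots of a probe were averaged, and log2 signals were set relative to the 75th percentile of the array's probes. The filter kept 25520 probes that were flagged as well above background, by most of their spots, in every array of 1 group or both. Probes were named by RefSeq accession without version (23374 matched to a table of GRCm38.p6, 17800 kept the name in the files), and each gene was read by the brightest of its kept probes (highest mean). The files name build mm8, so the only coordinates given are those of the RefSeq promoters. The groups were compared in R 4.3.3 with lmFit and eBayes of limma 3.58.1 (2-sided, no block), with Benjamini-Hochberg adjustment over all 19657 features and a threshold of 0.05.

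The members and lists were chosen with earlier results of these data known. Named genes were all members, Terf2ip, in each list the member of smallest p where none passed, and the features most like each member, searched to a rank of 3, of which the nearest are given, with all 3 for Mmp10. Other genes named (Mmp8, Mmp24, Timp4, Bsg, Reck, Furin, Plaur, Fos, Jun, Fosl1, Fosb, Fosl2, Junb, Jund, Ets1, Rela, Dcn, the markers and the neighbours on chromosome 9) were chosen after their values were seen. Arrays of the same replicate number gave correlations of their deviations of 0.01, 0.05 and −0.08, so the numbers were not taken to pair the samples. On simulated data with 19657 features and 200 changed, limma recovered 1.34% of those with a log2 change of 1, 46.3% with 2 and 85.5% with 4. Each simulated feature kept its own SD within the groups, all arrays were independent, and there was no slide effect. The members had a median SE of 0.76 against 0.31 over all features, so these shares do not carry over to the members.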

Additional observations from a re-analysis of the deposited data

How the results depend on the processing

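Under every alternative run, 0 of the members passed the threshold. Of the 2 features that passed, 1 was Terf2ip. The count became 0 over probes above background on all arrays (1779 at an unadjusted limma p under 0.05). The Terf2ip probe, detected on no knockout array, could not pass that filter, so its loss there was fixed in advance. The count was also 0 with the slide as a block (3483) and 0 with wild-type arrays 2 and 3 averaged (691). With the replicate block, limma also called 0 features (2354 at an unadjusted p under 0.05) and no member changed its call. The replicate numbers are not known to pair the samples. Limma called 4 features with the mean of a gene's probes, 6 with every probe as its own feature and 302 on slide 2 alone, where the near-alike arrays 2 and 3 are the only wild type. Without single arrays it called between 0 and 64, the latter without wild-type array 1. Members whose groups did not overlap were 1 after quantile normalisation, 1 after normexp with quantile normalisation and 1 in the value table. Without single arrays they were between 2 and 6, the latter without knockout array 3, which leaves fewer arrays to overlap.

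Mmp3 and Mmp10 stayed below 0 and Timp2 above 0 under all alternatives run for them. For Mmp10 the highest value was −0.01, on slide 2 alone, which is practically no difference, against −2.09 for Mmp3. Mmp10 could not be run over probes above background on all arrays. Differences changed sign as follows, and the cause was not tested. Mmp14 turned to −0.02 after quantile normalisation, −0.01 after normexp with it, −0.03 in the value table and −0.09 on slide 2, and lay between −0.10 and 0.45 without single arrays. Timp1 turned to −0.13, −0.18 and −0.19 under the first 3 of these, to −0.05 with the mean of its probes and to −0.05 with wild-type arrays 2 and 3 averaged, and lay between −0.43 and 0.37 without single arrays. On slide 2 Mmp13 was at 0.23, Mmp11 at −0.03 and Mmp2 at 1.04. Without single arrays Mmp2 lay between −1.29 and 0.48 and Timp3 between −1.21 and 0.15. Raising dim levels to the floor of the array, which was chosen after the data were seen, gave −2.57 for Mmp13 and −2.70 for Mmp10, while the planned normexp with quantile normalisation gave −1.61 and −1.75 and the value table −1.62 and −1.76. Without single arrays Mmp13 lay between −5.18 and −1.32, Mmp10 between −4.18 and −1.10 and Mmp3 between −5.51 and −2.21. Scaling by the array median moved the median of all features from 0.07 to 0.17. Signal over background limits Mmp13, Mmp10 and Mmp9 on the arrays where they were not detected. Mmp3 was detected on knockout array 1 but dim there, at a processed signal of 10.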
